A study of Arabidopsis thaliana with 48 samples.

Results

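The plastid of Arabidopsis thaliana carries its own small genome, and 133 gene entries of the count table bear identifiers of that genome, which start with ATCG. The 93 of them with a summed count of at least 100 over all 48 libraries are described here, out of 33602 genes in all. The other 40 entries together held 879 counts, and 9 of them had none. The highest of those left out were ATCG00010 with 84 counts and ATCG01230 and ATCG00240 with 82 each, and the lowest kept were ATCG00610 with 157, ATCG00370 with 195 and ATCG01000 with 215. A filter on low counts left 90 of the 93 members for testing, and the 3 just above the minimum were the ones not tested.

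Seedlings of 2 genotypes were compared. The mutant card1-2 (card1 below) and its wild type (WT below), both of ecotype Col-0, both expressed the calcium reporter aequorin. CARD1 encodes a receptor kinase of the plasma membrane through which quinones are sensed. Whole seedlings aged 7 days and grown in liquid medium with sucrose received 5 µM DMBQ (2,6-dimethoxy-1,4-benzoquinone, a quinone related to lignin breakdown products) or an equal volume of its solvent DMSO. Messenger RNA libraries were sampled at 0, 0.5, 1 and 6 h. Crossing genotype, agent and time makes 16 groups, each with 3 libraries. The card1-2 line carries a single mutant allele, the libraries mix all tissues of a seedling, and no label states that replicates came from separate cultures. The p-values then reflect only how far these samples differ, which could be technical spread. In bulk RNA, fewer green cells and less plastid RNA per cell cannot be told apart.

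Plastid genes are read by a bacterial-type polymerase, whose core subunits the plastid itself encodes, and by a phage-type polymerase from the nucleus. The bacterial-type enzyme needs nuclear-encoded sigma factors to find promoters and is wrapped in nuclear-encoded associated proteins. Many plastid genes lie in clusters that are read as 1 long RNA and then cut, and nuclear-encoded binding proteins protect the ends of the pieces. A poly(A) tail marks a plastid RNA for decay instead of stabilising it, so a library kit that selects poly(A) RNA takes up plastid transcripts only in part. The levels given here are therefore what such libraries captured, not the abundance of plastid RNA in the seedling.

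Depth was 4764682 to 14492051 gene counts per library, of which 44509 to 239110 fell on the plastid members. CARD1 itself averaged 27.86 CPM (counts scaled to library size) in card1 libraries, with a range of 17.67 to 34.73 CPM, and 84.13 CPM in WT libraries, with a range of 66.71 to 99.84 CPM. The ranges of the 2 genotypes did not overlap. Green tissue was present in every group: the summed level of 26 nuclear photosynthesis genes was between 15790 and 31400 CPM in every library. The summed level of 12 root marker genes was between 170.5 and 302.4 CPM.

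Some libraries stood apart in their plastid content. The 3 WT DMSO libraries at 0 h had 0.931%, 0.459% and 0.669% of their gene counts on plastid members, whereas the other 45 libraries had 1.03% or more. The first WT DMBQ library at 1 h had 2540 CPM of ATCG00480 against 4114 and 4538 CPM in its 2 partners, and 93.1 CPM of ATCG00130 against 33.0 and 29.6 CPM. The third card1 DMSO library at 0 h had 61.4 CPM of ATCG00150, against 269 and 203 CPM in its partners. For some of the results that rest on these libraries, counts or values without them are also given below.

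The captured plastid RNA was dominated by a few transcripts. ATCG00480 took 31.41% of all plastid counts, ATCG00470 took 13.41%, ATCG01130 took 6.462%, ATCG01020 took 4.985% and ATCG00790 took 4.95%. These 5 members made up 61.22% of all plastid counts and the first 10 made up 74.98%, while 77 members each had less than 1%. The share of ATCG00480 within a library's plastid counts ran between 15.58%, in the third WT DMBQ library at 0.5 h, and 37.62%, in the third card1 DMBQ library at 6 h.

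The annotation used here tied identifiers to names for the 6 members given by name here, and the others are given by identifier alone. ATCG00420 (ndhJ) and ATCG00430 (ndhK) encode subunits of the plastid NADH dehydrogenase-like complex, which takes part in cyclic electron flow around photosystem I. ATCG00670 (clpP) encodes the proteolytic subunit of the plastid Clp protease, and ATCG00530 (cemA) an envelope membrane protein. ATCG00660 (rpl20) and ATCG01310 (rpl2) encode ribosomal proteins. Per kilobase of exon, the mean level over the 48 libraries was 580.3 CPM for ndhK, 519.1 CPM for ndhJ, 112.6 CPM for clpP, 108.9 CPM for rpl20 and 60.57 CPM for cemA. It was 1.691 CPM for rpl2, which lies in 2 identical copies in the inverted repeat of the plastid genome, and reads that map to several places were not credited to a gene, so its counts are uncertain.

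The share of gene counts on plastid members was lowest in WT DMSO at 0 h. It averaged 1.175% ± 0.0511 in WT DMBQ at 0 h and 0.686% ± 0.236 in WT DMSO at 0 h (SD, n = 3 each), and the groups did not overlap. The card1 libraries at 0 h averaged 1.444% ± 0.216 with DMBQ and 1.279% ± 0.101 with DMSO (SD, n = 3 each). Among all 48 libraries the highest share was 1.874%, in WT DMSO at 1 h. Of 23 comparisons of this share, none had a Benjamini-Hochberg adjusted p below 0.0767, and 3 libraries against 3 cannot give an exact two-sided permutation p below 0.1. Over both genotypes at 0 h the share averaged 1.310% with DMBQ and 0.983% with DMSO, a difference of 0.327 percentage points (exact permutation p = 0.015, adjusted p = 0.0862).

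**Figure D1:**
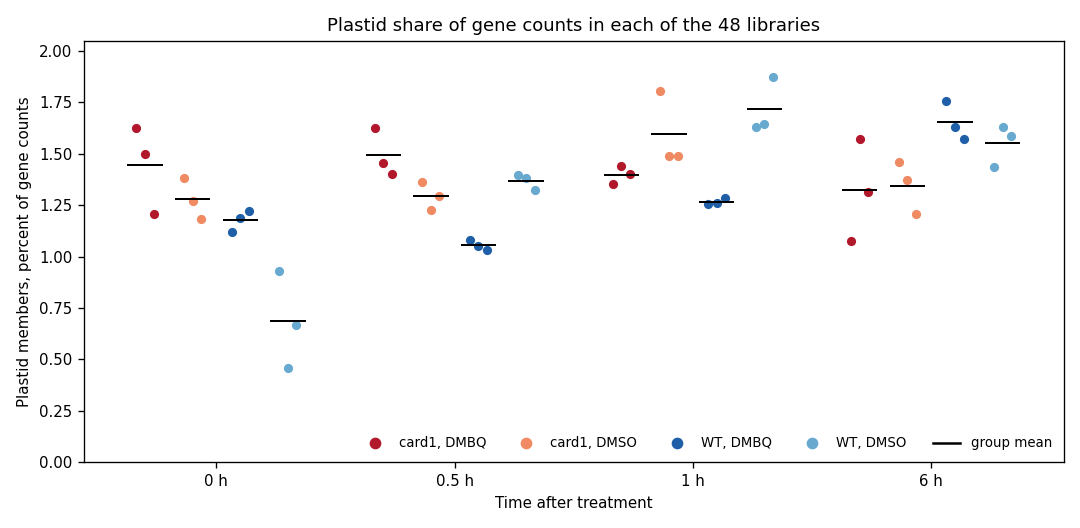
Percent of each library's gene counts that fell on the 93 plastid members, by time after treatment, with 1 point per library and the group mean as a bar. The 3 WT DMSO libraries at 0 h lie between 0.459 and 0.931%, below the other 45 libraries, which start at 1.03%.

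At 0 h, the earliest sampling point, plastid transcripts were higher in WT seedlings with DMBQ than in WT seedlings with DMSO. By its label, 0 h leaves the agents no time to act. A difference between agents there is therefore not shown to be a response to DMBQ and can be spread between groups. Of the 90 members tested, 25 were higher and none was lower at an adjusted p under 0.05 (edgeR's quasi-likelihood test, Benjamini-Hochberg over all genes), against 0.126% of all genes called. Those 25 members were all of the genes called in this comparison. The median log2 fold change was 1.23 over the members and 0.000520 over all genes, and 89 of the 90 members were above 0. With the replicate number as a block, 43 members were higher. Relative to the summed plastid count, 30 members were higher and 2 lower, with a median of 0.366. Here and below, counts under this scaling are not comparable with the main ones, as set out with the processing.

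ATCG00510 had 8.54, 11.7 and 11.9 CPM in WT DMBQ at 0 h, against 2.57, 1.61 and 2.46 CPM in WT DMSO at 0 h, a log2 fold change of 2.34 ± 0.381 (SE, edgeR adjusted p = 0.00371). ATCG01100 had 62.1, 73.3 and 87.8 CPM with DMBQ, against 23.5, 20.7 and 15.0 CPM with DMSO, a log2 fold change of 1.92 ± 0.392 (edgeR adjusted p = 0.0305). Every DMBQ library lay above every DMSO library for both. ATCG01090 (log2 fold change 2.14), ATCG00520 (1.96) and ATCG00130 (1.87) were also higher with DMBQ, and their groups did not overlap either. Among the named genes, cemA was higher with a log2 fold change of 1.32 ± 0.232 (edgeR adjusted p = 0.00733) and clpP with 1.03 ± 0.182 (edgeR adjusted p = 0.00733).

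The most abundant transcripts differed less. ATCG00480 had 2276, 2832 and 3194 CPM in WT DMBQ at 0 h, against 2576, 987 and 2088 CPM in WT DMSO at 0 h. The groups overlapped, and the log2 fold change of 0.56 ± 0.208 did not pass the test (edgeR adjusted p = 1.00). For ndhJ the log2 fold change was 0.49 ± 0.190 and for ndhK 0.44 ± 0.193, also without passing.

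The call for rpl2 rested on 1 library. Its level was 0.244, 0.931 and 37.1 CPM in WT DMBQ at 0 h, against 0.550, 0.189 and 0.144 CPM in WT DMSO at 0 h. No other library of the series was above 1.96 CPM.

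The count of 25 depended on single libraries. It was 23, 0 and 0 without the first, the second and the third WT DMSO library, and 9, 9 and 2 without the first, the second and the third WT DMBQ library. Of the 23, only 12 were among the 25, whereas the 9, 9 and 2 were all among them. Genes of the mitochondrial genome stood on the same side: the 17 tested had a median log2 fold change of 0.50, with none called, and their summed level was 994.9 to 1622 CPM in WT DMBQ at 0 h and 883.5 to 1143 CPM in WT DMSO at 0 h. What moves with both organelles was not tested. No sigma factor, no polymerase-associated gene, no gene of the nuclear photosynthesis list and no root marker was called in this comparison, and the medians of these 4 lists lay between -0.0113 and 0.0718.

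In card1 at 0 h, DMBQ and DMSO libraries differed in few members. Of the members, 1 was higher and 2 were lower, against 5.45% of all genes called, and the median log2 fold change of the members was 0.0949. ATCG00760 had 88.4, 83.2 and 59.5 CPM with DMBQ, against 33.9, 26.6 and 65.5 CPM with DMSO, a log2 fold change of 0.88 ± 0.235 (edgeR adjusted p = 0.0254), although the groups overlapped. ATCG00150 had 94.0, 84.1 and 45.2 CPM with DMBQ, against 269, 203 and 61.4 CPM with DMSO, a log2 fold change of -1.26 ± 0.322 (edgeR adjusted p = 0.0198). ATCG00650 was lower with DMBQ, with a log2 fold change of -0.93 ± 0.285 (edgeR adjusted p = 0.0476). For ATCG00150 and ATCG00650 the third DMSO library lay below its 2 partners and within the range of the DMBQ libraries or below it. Scaled by the summed plastid count, 1 member was called, a lower one. Without the third card1 DMSO library 14 members were called, without the first or the second none, and without the first, the second and the third card1 DMBQ library 1, 1 and 2.

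DMBQ minus DMSO at 0 h differed between the 2 genotypes, by its own test, in 1 member, against 0.0101% of all genes called. This is termed the difference of the responses at 0 h below, although 0 h leaves the agents no time to act. ATCG00300 had 27.3, 30.2 and 18.7 CPM in card1 DMBQ, 54.3, 35.8 and 25.9 CPM in card1 DMSO, 24.4, 23.4 and 27.1 CPM in WT DMBQ, and 14.9, 8.05 and 8.81 CPM in WT DMSO. Its DMBQ minus DMSO value was -0.61 in card1 and 1.29 in WT on the log2 scale, a difference of -1.90 ± 0.344 (edgeR adjusted p = 0.0397). The median difference over the members was -1.21, and 61 members had an unadjusted p under 0.05. Leaving out the third card1 DMSO library gave 36 members called, and leaving out the first WT DMSO library gave 13. Leaving out either of the other 2 libraries of card1 DMSO or of WT DMSO, any WT DMBQ library or the third card1 DMBQ library gave none.

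Among DMSO libraries at 0 h, card1 had higher plastid transcript levels than WT. Of the members, 46 were higher and none was lower, against 12.7% of all genes called and 6.87% called higher, and the median log2 fold change was 0.81 over the members and 0.00344 over all genes. With scaling by the summed plastid count, 18 members were higher and 25 lower, and the median turned to -0.239. ATCG00330 had 118, 104 and 36.5 CPM in card1 DMSO at 0 h, against 18.2, 16.8 and 13 CPM in WT DMSO at 0 h, a log2 fold change of 2.43 ± 0.328 (edgeR adjusted p = 1.54e-05). ATCG00220 had 210, 182 and 304 CPM in card1, against 45.7, 7.01 and 61.7 CPM in WT, a log2 fold change of 2.66 ± 0.509 (edgeR adjusted p = 0.000720). For both, every card1 library lay above every WT library.

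Others rose in the same comparison. ATCG00150 had a log2 fold change of 2.19 ± 0.345, ATCG00650 of 2.16 ± 0.332, and rpl20 of 2.09 ± 0.320. Of the named members, ndhK (1.44), clpP (0.94), cemA (0.91) and ndhJ (0.83) also rose. The count of 46 was 45, 27 and 34 without the first, the second and the third WT library, 32, 40 and 47 without the first, the second and the third card1 library, and 3 without the second replicate of every group. Fitted on the 6 libraries of this comparison alone, no member was called.

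Nuclear photosynthesis genes moved in the same direction: 14 of 26 were higher in card1 DMSO at 0 h, with a median log2 fold change of 0.268. Of all genes, 6.87% were called higher and 12.7% in either direction. Their summed level was 27950, 30640 and 31400 CPM in card1 DMSO at 0 h (lowest, median and highest), against 24060, 24610 and 25490 CPM in WT DMSO at 0 h. Of 12 root markers, PIN2, an auxin transporter of the root, was lower with a log2 fold change of -0.49, and their summed level was 185.7 to 256.6 CPM in card1 and 199.2 to 302.4 CPM in WT. Among the 4 genes for RNA-stabilising proteins, MRL1 (-0.53) and PGR3 (-0.48) were lower. The part that green tissue plays in the plastid result was not tested.

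With DMBQ at 0 h, 8 members were higher and 2 lower in card1 than in WT, against 3.87% of all genes called, and the median log2 fold change was -0.172. The replicate block gave 23 members, 8 higher and 15 lower. Scaling by the summed plastid count gave 5 higher and 45 lower. ATCG00470 had 2376, 2166 and 1938 CPM in card1 DMBQ at 0 h, against 833, 994 and 1421 CPM in WT DMBQ at 0 h, a log2 fold change of 1.00 ± 0.243 (edgeR adjusted p = 0.0170). ATCG00480 had 4895, 4579 and 4720 CPM in card1, against 2276, 2832 and 3194 CPM in WT, a log2 fold change of 0.77 ± 0.208 (edgeR adjusted p = 0.0287). Neither of the 2 members' groups overlapped.

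The members that were higher in this comparison were ATCG00210, ATCG00220, ndhJ, ndhK, ATCG00440, ATCG00450, ATCG00470 and ATCG00480. The 2 lower ones were ATCG00520, with a log2 fold change of -1.58 ± 0.389, and rpl2, whose value rests on the 1 high WT library. Leaving out any 1 WT DMBQ library left 3 of these 10 called. Without the first card1 DMBQ library 7 members were called, all lower, of which 2 were among the 10, so that none of the 8 higher calls was kept. Without the second and the third card1 DMBQ library 2 and 6 of the 10 were kept.

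**Figure D2:**
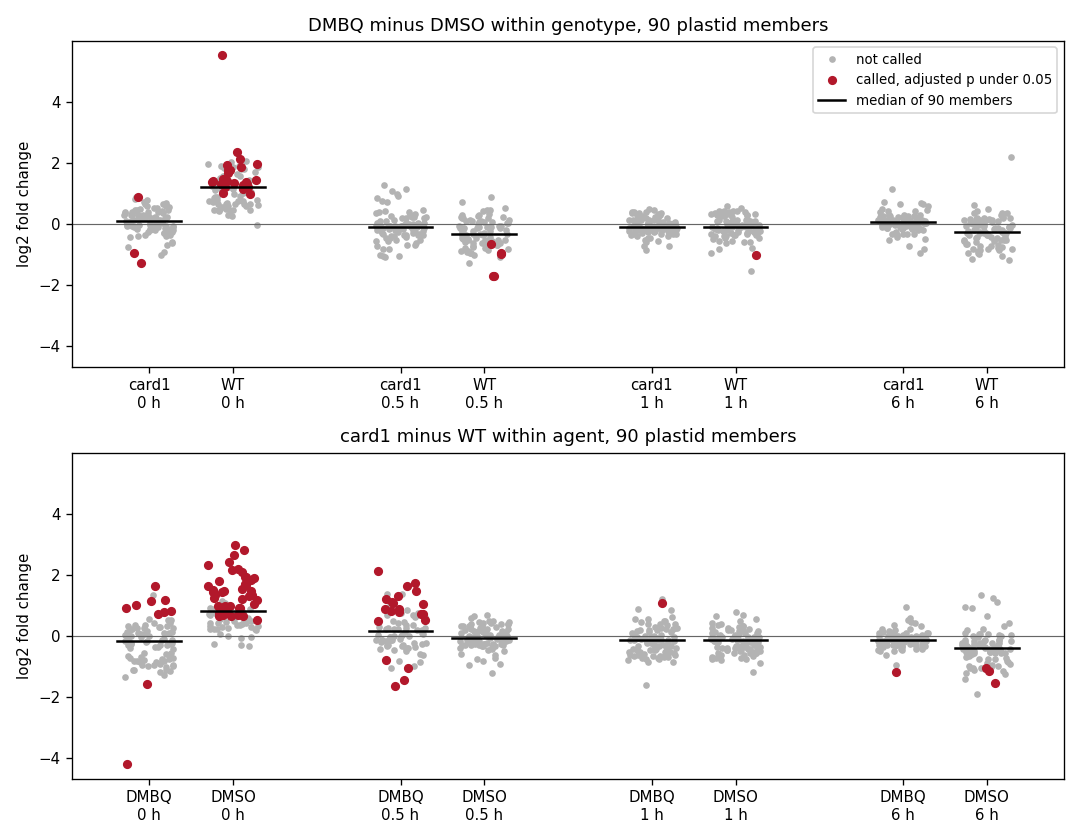
Log2 fold change of each of the 90 tested plastid members in the 16 comparisons of 2 groups, DMBQ minus DMSO above and card1 minus WT below, with called members in red and the median as a bar. The medians stand furthest from 0 in WT at 0 h (1.23) and in DMSO at 0 h (0.81), and most red points lie at 0 h. The medians of card1 minus WT in DMSO at 6 h (-0.403) and of DMBQ minus DMSO in WT at 0.5 h (-0.317) lie below 0.

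Most calls of members came from the comparisons at 0 h. The 4 comparisons at 0 h gave 84 calls over 61 members, and the 12 comparisons after 0 h gave 32 calls over 24 members. Of all genes, 0.126 to 12.7% were called in the comparisons at 0 h and 0.151 to 26.1% in those after it. Of the 84 calls, 25 came from DMBQ against DMSO in WT and 46 from card1 against WT in DMSO. Both comparisons hold the low WT DMSO group at 0 h, so their calls are not separate observations. In all, 66 members were called in at least 1 of the 16 comparisons and 27 in none, among them the 3 members not tested.

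**Figure D3:**
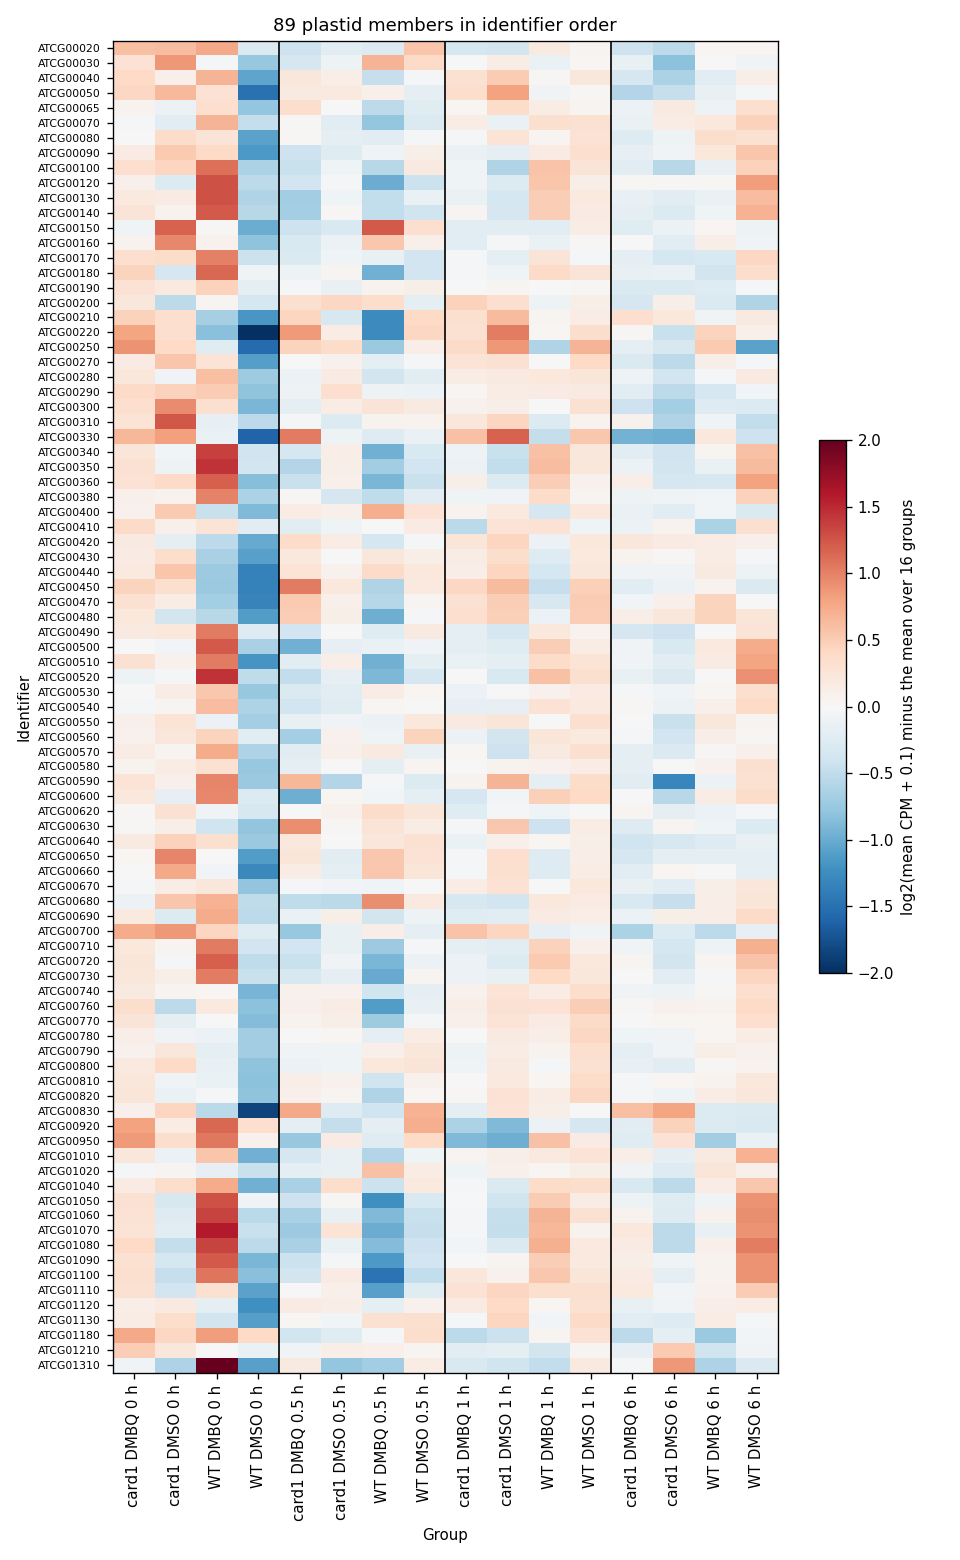
Mean CPM of each of 89 tested members in each group, as log2 of the mean plus 0.1 minus the member's mean over the 16 groups, with members in identifier order down the page and groups in time order. Values past the ends of the scale take its end colours. The rows ATCG01050 to ATCG01100 have similar colours in most groups, and WT DMSO at 0 h is pale to blue for most members.

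At 0.5 h a small set of plastid transcripts was lower with DMBQ than with DMSO in WT. Of the members, 5 fell and none rose, against 2.45% of all genes called and 0.978% called lower, and the median log2 fold change was -0.317. ATCG00480 had 2232, 2328 and 1628 CPM in WT DMBQ, against 4201, 3979 and 3734 CPM in WT DMSO at 0.5 h, a log2 fold change of -0.95 ± 0.209 (edgeR adjusted p = 0.00931). ATCG00210 had 2.88, 3.51 and 2.93 CPM with DMBQ, against 12.3, 9.21 and 9.02 CPM with DMSO, a log2 fold change of -1.71 ± 0.353 (edgeR adjusted p = 0.00513). The groups did not overlap for either.

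ATCG00220 (-1.69), ATCG00760 (-0.98) and ATCG00820 (-0.65) fell as well. ATCG01020 and ATCG00150 were not called but stood the other way in level. ATCG01020 had 983, 979 and 1016 CPM in WT DMBQ at 0.5 h, against 716, 722 and 761 CPM in WT DMSO at 0.5 h. ATCG00150 had 172, 151 and 228 CPM with DMBQ, against 91.6, 89.4 and 117 CPM with DMSO. As a share of plastid counts, ATCG01020 took 9.17, 9.07 and 9.73% in the WT DMBQ libraries at 0.5 h. Scaled by the summed plastid count, 10 members were higher and 4 lower. Without the first, the second and the third WT DMSO library at 0.5 h the count of 5 was 2, 2 and 4, and without the first, the second and the third WT DMBQ library it was 2, 4 and 1. The call of ATCG00480 was lost without the third WT DMBQ library (edgeR adjusted p = 0.0966).

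In card1 at 0.5 h no member was called with edgeR's quasi-likelihood test, against 0.151% of all genes called; 8 had an unadjusted p under 0.05, and DESeq2 called 1. ATCG00480 had 6128, 5415 and 5606 CPM with DMBQ, against 3990, 4374 and 4814 CPM with DMSO. The difference of the 2 genotypes' responses at 0.5 h was called for no member and no gene (0% called) with edgeR, with 16 members at an unadjusted p under 0.05 and 2 called by DESeq2. In this test the responses of the genotypes are not shown to differ. Scaled by the summed plastid count, the difference was called for 17 members, 4 higher and 13 lower, and in a fit of the compared libraries alone for 4, all higher. Without the third card1 DMSO library at 0.5 h, 2 members were called for the difference.

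With DMBQ at 0.5 h, card1 and WT differed in both directions. Of the members, 17 were higher and 4 lower in card1 than in WT, against 26.1% of all genes called, and the median log2 fold change was 0.153. With 21 of 90 members called, the members' share is near that background. ATCG00480 had 6128, 5415 and 5606 CPM in card1, against 2232, 2328 and 1628 CPM in WT, a log2 fold change of 1.47 ± 0.211 (edgeR adjusted p = 9.32e-06). ATCG00220 had 399, 347 and 253 CPM in card1, against 50.8, 75.4 and 103 CPM in WT, a log2 fold change of 2.13 ± 0.475 (edgeR adjusted p = 0.00128). Neither pair of groups overlapped.

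The 4 members lower in card1 were ATCG00150, ATCG00680, ATCG00030 and ATCG01020. ATCG00150 had 61.9, 59.1 and 55.9 CPM in card1, against 172, 151 and 228 CPM in WT, a log2 fold change of -1.64 ± 0.332 (edgeR adjusted p = 0.000507). ATCG00680 had a log2 fold change of -1.43 ± 0.283, ATCG00030 of -1.03 ± 0.266 and ATCG01020 of -0.79 ± 0.150. Of the named members, ndhJ rose by 0.72 on the log2 scale, while ndhK was at -0.0142 without passing. Relative to the summed plastid count, 9 members were higher and 30 lower.

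Nuclear genes for plastid RNA proteins were tested in the same pair of groups, in which 26.1% of all genes were called. All 4 genes for RNA-stabilising proteins were higher in card1, among them HCF152 by 0.58 and HCF107 by 0.46 on the log2 scale. Both proteins act on RNAs of the psbB gene cluster. Of 12 polymerase-associated genes, 5 were higher and 2 lower. Of the 17 mitochondrial genes tested, 5 were lower, a share near that of all genes, with a median log2 fold change of -0.646. The median over all genes was -0.0190.

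At 1 and 6 h DMBQ was accompanied by 1 call in the model of all libraries. In WT at 1 h 1 member was lower, against 2.78% of all genes called. It was ATCG00330, with 50.3, 27.1 and 27.2 CPM with DMBQ, against 52.6, 64.4 and 95.1 CPM with DMSO, a log2 fold change of -1.02 ± 0.285 (edgeR adjusted p = 0.0413). Without the first WT DMBQ library at 1 h, which stood apart, it was -1.39 (edgeR adjusted p = 0.00725), and the call was lost without either of the other 2 (0.263 and 0.270) or without the second or the third WT DMSO library (0.0695 and 0.355). Relative to the summed plastid count, 7 members were higher and 1 lower in this comparison, and ATCG00330 was not among them, with -0.56 (edgeR adjusted p = 0.0745). Its call was also lost in a fit of the compared libraries alone (edgeR adjusted p = 0.401). In card1 at 1 h no member was called by edgeR or DESeq2, against 1.18% of all genes called, with 1 at an unadjusted p under 0.05. In WT at 6 h no member was called by either tool in the model of all libraries, against 1.22% of all genes called, with 13 at an unadjusted p under 0.05. Fitted on the 6 libraries of that comparison alone, edgeR called 25 members, 2 higher and 23 lower. In card1 at 6 h no member was called by either tool, against 1.05% of all genes called, with 2 at an unadjusted p under 0.05. The difference of the responses was called for no gene (0% called) at 1 h, with 0 members at an unadjusted p under 0.05, or at 6 h, with 6.

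With DMBQ, ATCG00330 was also the 1 member called between the genotypes at 1 h and at 6 h, in opposite directions. With DMBQ at 1 h it was the 1 member called, against 7.38% of all genes called, with 69.9, 76.4 and 74.4 CPM in card1 and 50.3, 27.1 and 27.2 CPM in WT, a log2 fold change of 1.07 ± 0.288 (edgeR adjusted p = 0.0194). With DMBQ at 6 h it was the 1 member called, against 7.05% of all genes called, with 16.1, 28.6 and 31.4 CPM in card1 and 64.1, 47.2 and 58.3 CPM in WT, a log2 fold change of -1.18 ± 0.305 (edgeR adjusted p = 0.0155). At both times the groups did not overlap. Without the first WT DMBQ library at 1 h, which stood apart, the log2 fold change at 1 h was 1.44 (edgeR adjusted p = 0.00580). The call at 1 h was lost without the second or the third WT library (edgeR adjusted p = 0.110 and 0.102) or the second card1 library (0.0654), and the call at 6 h without the first WT library (0.0875) or the first card1 library (0.115). Scaled by the summed plastid count, the call of ATCG00330 was lost at 1 h (edgeR adjusted p = 0.0894), where another member was called lower. Fitted on the compared libraries alone, it was called neither at 1 h (0.0933) nor at 6 h (0.0722).

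In DMSO few members were called between genotypes at the later times, although most stood lower in card1 at 6 h. At 0.5 h no member was called by edgeR, against 6.11% of all genes called, with 4 at an unadjusted p under 0.05. At 1 h none was called, against 3.66% of all genes called, with 2 at an unadjusted p under 0.05. At 6 h, ATCG01080, ATCG01050 and ATCG00710 were lower in card1, against 5.19% of all genes called. ATCG01080 had 6.81, 7.72 and 4.85 CPM in card1 DMSO at 6 h, against 17.9, 21.6 and 17.7 CPM in WT DMSO at 6 h, a log2 fold change of -1.54 ± 0.465 (edgeR adjusted p = 0.0461). Every card1 library lay below every WT library, but leaving out any 1 of the 6 ended the call of each of the 3 members. Fitted on those 6 libraries alone, 28 members were lower. The median over the members was -0.403, and 35 of them had an unadjusted p under 0.05. Of the 90 tested, 17 were above 0. In 52 members every card1 library lay below every WT library, and in 2 above. Among all 19839 genes this held for 2490 and 2566. With scaling by the summed plastid count, none was called.

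**Figure D4:**
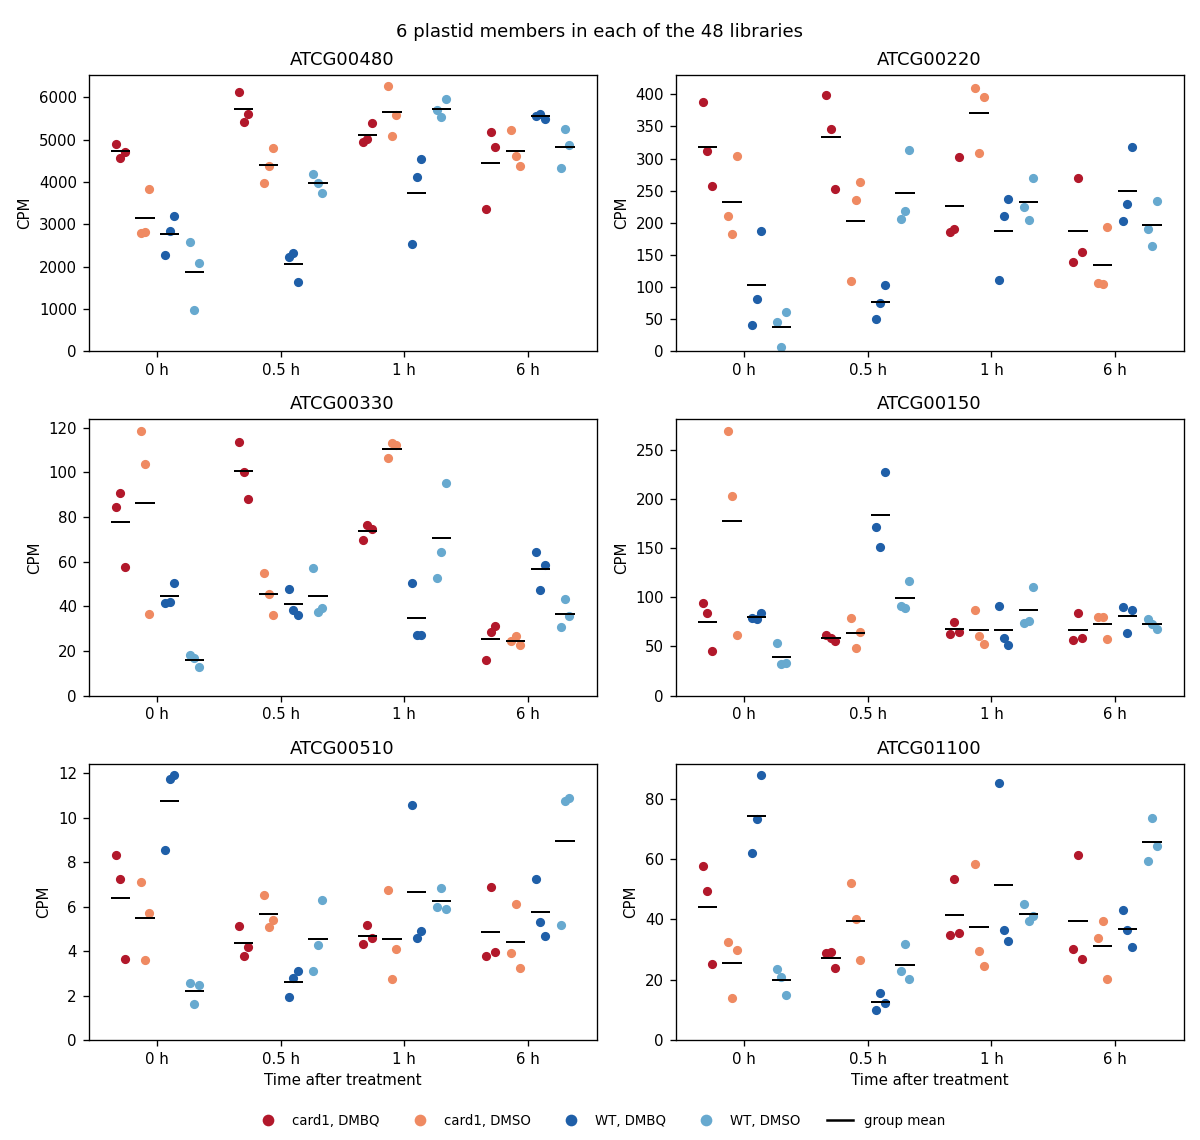
CPM of 6 members in each library by time after treatment, with the group mean as a bar; axes start at 0 and differ between panels. ATCG00480 and ATCG00220 are low in WT at 0 h and in WT DMBQ at 0.5 h, and ATCG00510 and ATCG01100 are highest in WT DMBQ at 0 h.

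One run of neighbouring identifiers, ATCG01050 to ATCG01110, is described here because of its values, without a test. Of its 7 members, 6 had their highest mean of the 16 groups in WT DMBQ at 0 h and the next in WT DMSO at 6 h, and all 7 their lowest in WT DMBQ at 0.5 h. This order was not counted over the other members, and its ends are not particular to the run. As shares of a library's plastid counts, ATCG00120, ATCG00720 and ATCG00730 were also highest in a WT DMBQ library at 0 h. Their lowest shares were in a WT DMBQ library at 0.5 h. ATCG01050 averaged 55.88 CPM in WT DMBQ at 0 h, 9.775 CPM in WT DMBQ at 0.5 h and 43.03 CPM in WT DMSO at 6 h. ATCG01100 averaged 74.39, 12.66 and 65.81 CPM in the same 3 groups. ATCG01110 was the exception, with 63.89 CPM in WT DMBQ at 0 h and its highest mean, 73.87 CPM, in WT DMSO at 6 h. The adjacent ndhJ and ndhK did not always stand together, as their values in card1 against WT with DMBQ at 0.5 h show. Neighbouring plastid genes can share 1 RNA, so members of such a run are not separate observations. Whether the counting used strand is not given in the sources used here.

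The later times were set against 0 h as a mean over both genotypes and both agents, which puts the low WT DMSO group into the 0 h mean. At 0.5 h 12 members were higher and 20 lower, against 27.9% of all genes called. At 1 h 24 were higher and 5 lower, against 48.9% of all genes called. At 6 h 15 were higher and 13 lower, against 61.1% of all genes called. The members' shares at 1 and 6 h were below that of all genes.

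These splits rested on the WT DMSO libraries at 0 h. Without the WT DMSO 0 h group, over the other 3 backgrounds, 1 was higher and 39 lower at 0.5 h, 2 were higher and 14 lower at 1 h, and 2 were higher and 39 lower at 6 h. Scaled by the summed plastid count, 5 were higher and 52 lower at 0.5 h, 3 and 56 at 1 h, and 3 and 49 at 6 h. Counts under this scaling are not comparable with the main ones, for the reasons given with the processing. The share of gene counts averaged 1.303% at 0.5 h, 1.494% at 1 h and 1.467% at 6 h, against 1.146% at 0 h, with permutation p-values of 0.0854, 0.00508 and 0.00878 and none below an adjusted p of 0.0767.

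ATCG00480 rose in these comparisons with a log2 fold change of 0.35 ± 0.104 at 0.5 h, 0.75 ± 0.104 at 1 h and 0.72 ± 0.104 at 6 h (edgeR adjusted p = 0.00922, 2.59e-07 and 3.03e-07). Without the WT DMSO 0 h group it was 0.11 at 0.5 h, which did not pass, and 0.46 at 1 h and 0.50 at 6 h, both still called. ATCG00470 rose with 0.41, 0.64 and 0.51 at 0.5, 1 and 6 h, and without that group its values of 0.0890, 0.23 and 0.24 at these times did not pass the test. ndhJ (ATCG00420) rose with 0.43, 0.58 and 0.55, and without that group it was 0.24 at 0.5 h, not called, and 0.37 and 0.36 at 1 and 6 h, both called. ndhK (ATCG00430) rose with 0.45, 0.42 and 0.36, but its values of 0.19, 0.12 and 0.13 without that group did not pass, and relative to the summed plastid count it was at -0.0173 at 1 h. ATCG01050, by contrast, was lower at 0.5 h with a log2 fold change of -0.79 ± 0.180, and ATCG00020 was lower at 1 h (-0.54) and at 6 h (-0.64). ATCG01180 was lower at 1 h (-0.78) and at 6 h (-1.03).

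Over all 8 pairs of agent and time, 13 members were higher and 10 lower in card1 than in WT, against 44.6% of all genes called. The members' share was below that of all genes. ATCG00220 (0.77), ATCG00450 (0.70), ATCG00210 (0.62), ATCG00330 (0.57) and ATCG00470 (0.48) were higher, and ATCG00500 (-0.52), ATCG00680 (-0.52) and ATCG00600 (-0.51) lower. ATCG00480 averaged 4744 CPM over the card1 groups and 3814 CPM over the WT groups, a log2 fold change of 0.40 ± 0.0732 (edgeR adjusted p = 3.10e-05). Without the DMSO pair at 0 h, which leaves out both its WT and its card1 group, 10 were higher and 25 lower. With scaling by the summed plastid count, 10 were higher and 51 lower.

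In the same mean over pairs, 21 of 26 nuclear photosynthesis genes were higher in card1 and 1 was lower, with a median log2 fold change of 0.136. Of the 17 mitochondrial genes tested, 14 were lower and none higher, with a median of -0.584. Of all 19839 genes tested, 4351 were called higher and 4493 lower, and the median over all genes was -0.00627.

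Nuclear sigma factors, the promoter-recognition subunits of the bacterial-type plastid polymerase, were compared over time. Against 0 h, 5 of 6 were lower at 0.5 h, where 27.9% of all genes were called, and 4 were lower at 1 h, where 48.9% were called. At 6 h 2 were higher and 2 lower, a share near the 61.1% of all genes called. SIG5, known as the light- and stress-responsive member, averaged 16.63 ± 7.68 CPM in WT DMSO at 0 h, 6.533 ± 2.01 CPM at 0.5 h, 5.252 ± 2.02 CPM at 1 h and 5.014 ± 1.27 CPM at 6 h (SD, n = 3 each). In card1 DMSO it averaged 20.64 ± 4.09, 8.344 ± 1.16, 7.137 ± 0.462 and 4.503 ± 0.594 CPM at the same times. Its log2 fold change against 0 h, as a mean of the 4 backgrounds, was -1.17 ± 0.149 at 0.5 h, -1.50 ± 0.148 at 1 h and -1.77 ± 0.157 at 6 h (edgeR adjusted p = 8.40e-08, 1.70e-10 and 4.53e-12).

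SIG1 was lower at 0.5, 1 and 6 h, with log2 fold changes of -0.37, -0.75 and -0.83. SIG3 was lower at 0.5 h (-0.23) and 1 h (-0.42) and higher at 6 h (0.52). SIG4 was lower at 0.5 h (-0.27) and higher at 6 h (0.69). SIG6 was lower at 0.5 h (-0.17) and 1 h (-0.41), and SIG2 passed the test at none of the 3 times. No sigma factor was called between DMBQ and DMSO in either genotype at 0 h or between genotypes at 0 h with either agent. In the mean over pairs, SIG2 was higher in card1 by 0.11 and SIG3, SIG4 and SIG6 fell by 0.20, 0.25 and 0.11 on the log2 scale.

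**Figure D5:**
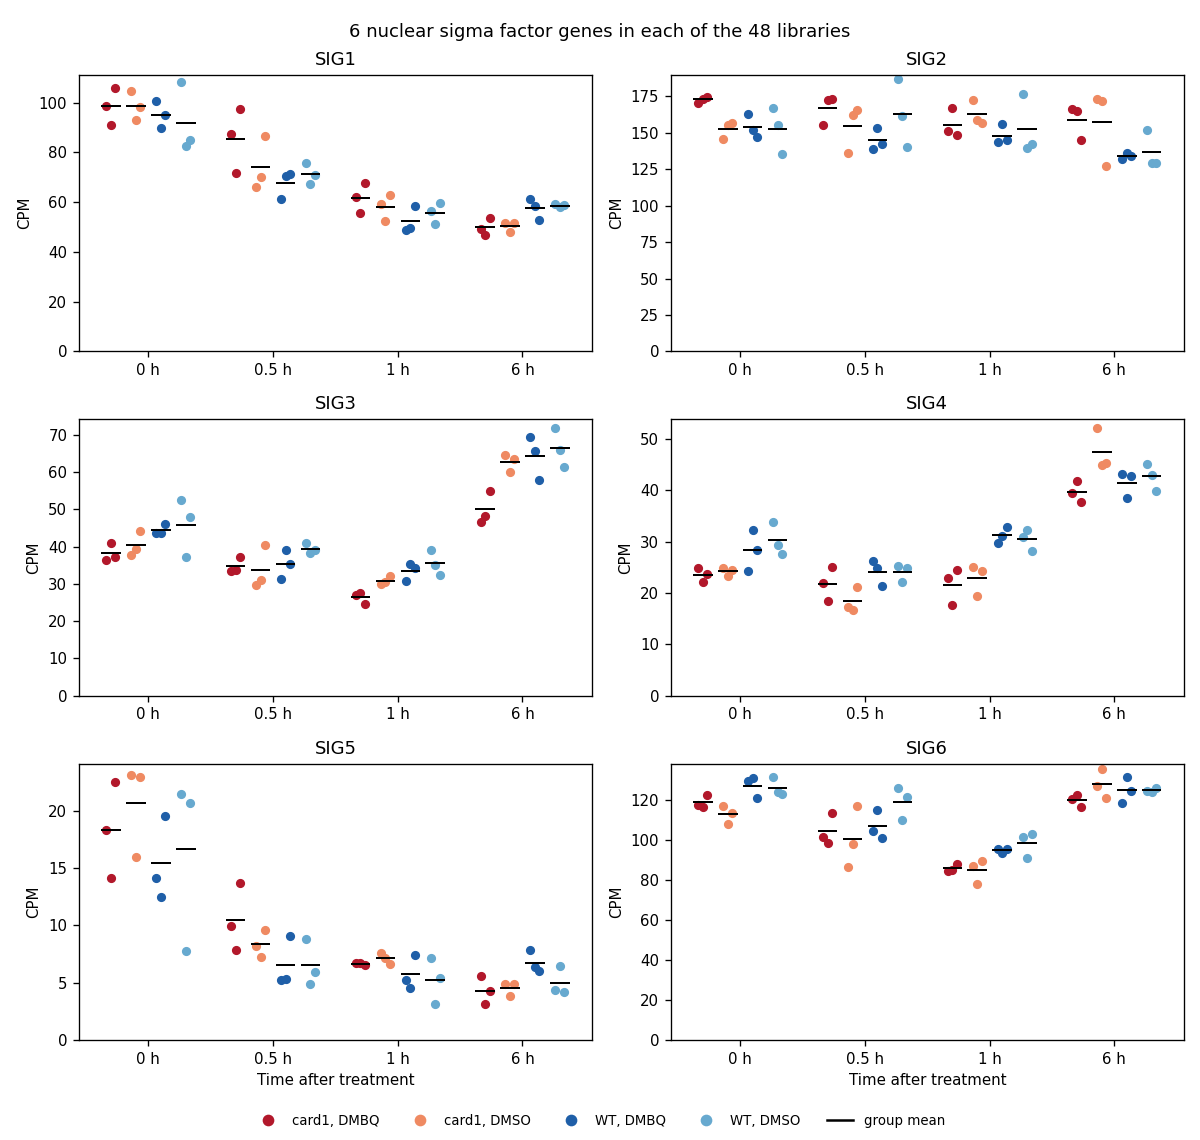
CPM of the 6 nuclear sigma factor genes in each library by time after treatment, with the group mean as a bar; axes start at 0 and differ between panels. The group means of SIG5 and SIG1 are highest at 0 h in all 4 backgrounds, and those of SIG3 and SIG4 at 6 h.

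The other nuclear lists were set against the 61.1% of all genes called at 6 h. At 6 h 20 of 26 nuclear photosynthesis genes were lower and 4 higher than at 0 h, with a median log2 fold change of -0.635. PSAD2 (-1.84) and PSAH2 (-1.66), subunits of photosystem I, had the smallest adjusted p-values among them. Of 6 genes for plastid RNA turnover, 3 were higher at 6 h and 1 lower, a share near that of all genes. RNR1, an exoribonuclease, rose by 0.49 and PNP, a polynucleotide phosphorylase, by 0.36. Of the 4 stabilising proteins, 3 were higher at 6 h and HCF107 was lower with -0.37. ATCG00480 was higher at 6 h than at 0 h in the same libraries in which most nuclear photosynthesis genes were lower.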

How the data were processed

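The members, gene lists and comparisons were chosen with earlier results of these data known. The authors deposited a table of raw gene counts with 48 sample columns. The aligner HISAT2 2.1.0, the counter HTSeq 0.6.1 and the build TAIR10 are named, per the submitters' processing notes. The KAPA mRNA HyperPrep kit was used, per the labels' protocols. Which annotation and strand setting the counting used is not given in the sources used here. The 5 entries that name no gene entered neither depth nor tests; among all reads listed, 6.53 to 13.3% per library were not unique, 1.28 to 2.08% had no feature, 2.64 to 7.25% were not aligned and 0.655 to 0.735% were ambiguous.

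edgeR 4.0.16 in R 4.3.3 was used with limma 3.58.1. filterByExpr with a minimum count of 10 kept 19839 genes, TMM factors (0.933 to 1.09) scaled the libraries, and a single robust quasi-likelihood fit covered the 48 libraries with 1 mean for each group (32 residual degrees of freedom). Benjamini-Hochberg adjustment ran over all genes tested in a comparison, with calls at 0.05. Levels are CPM with TMM-scaled library sizes, and fold changes are log2 values with the model's SE, first-named group over the other. The plastid share was tested by exact permutation of the libraries within each pair or, for comparisons pooled over strata after 0 h, by 100000 resamples, with scipy 1.17.1 in Python 3.11.15, numpy 2.4.6 and pandas 2.3.3; figures used matplotlib 3.10.9. Median depth was 8489009 gene counts. The 48 replicate pairs had a chi-square of 2.13 to 16.4 per degree of freedom, above sampling noise, so none was counted as a copy.

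The procedure was tested on simulated data for DMBQ against DMSO in WT at 0 h. Of 50 changed genes at each fold, 23 were recovered at 1.5-fold, 40 at 2-fold, 45 at 3-fold and 50 at 4-fold, with 3 of 19581 unchanged genes called. Each gene was drawn independently from the fitted spread, without variation that plastid members share within a library. The simulation therefore cannot show how many calls of plastid members in this comparison are false.

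Replicate numbers were used as a block in an alternative. The correlation of same-numbered libraries' deviations over all genes was above 0.1 for every number in 5 of the 16 comparisons of 2 groups: DMBQ against DMSO in WT at 0 h and in card1 at 0, 0.5 and 1 h, and card1 against WT with DMBQ at 0 h. There the pairing comes from the data, not from the labels. Other alternatives were DESeq2 1.42.0, its size factors in edgeR, no filter, scaling by the summed plastid count, a fit of the compared libraries alone, and leaving out libraries. The scaling by the summed plastid count took that sum as library size for all genes, and the adjustment still ran over all of them. ATCG00480 alone made up 31.41% of all plastid counts, so its level also shifts the scaled values of the other members. Counts under this scaling are therefore not comparable with those of the main fit. The comparisons without the WT DMSO 0 h group and the difference of the responses at 0 h were chosen after the values were seen. The comparisons without that group were made in the fit of all 48 libraries. Those of later times against 0 h also left out WT DMSO at the later time.

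Members named in the text are, in each comparison, the 5 called with the largest rise and the 5 with the largest fall at a mean log2 CPM of at least 1, the abundant members, the members that the TAIR10.1 annotation ties to an identifier (1 of them is not reported here), and single members chosen after their values were seen (ATCG00030 and the members that make up a count of 10 or fewer). Other identifiers were not paired with gene names, lengths or roles in the sources used here, so the parts of the naming rule that rest on levels per kilobase and on role lists could not be applied. The nuclear lists held 69 symbols, of which 66 were found in the annotation; the list of phage-type polymerases was not used. The sigma factors were always named, and of each other list the 2 genes with the smallest adjusted p.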

Additional observations from a re-analysis of the deposited data

Results flagged for a closer look

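ATCG00300 drew attention because its DMBQ minus DMSO value at 0 h differed between the genotypes in a test of the difference itself: card1 minus WT was -1.90 ± 0.344 on the log2 scale (edgeR adjusted p = 0.0397). By its label, 0 h leaves the agents no time to act, so a response to DMBQ is not shown. ATCG00300 had 27.3, 30.2 and 18.7 CPM in card1 DMBQ, against 54.3, 35.8 and 25.9 CPM in card1 DMSO, and 24.4, 23.4 and 27.1 CPM in WT DMBQ, against 14.9, 8.05 and 8.81 CPM in WT DMSO. Over the 20 alternatives with an adjusted p the difference lay between -2.18 and -1.21, and the call was kept in 8 and lost in 12. It was lost in 10 of the 15 that leave out libraries, without the filter on low counts, and in a fit of the compared libraries alone. DESeq2 gave it no adjusted p (unadjusted p = 1.35e-08), as for 56 of the 90 members. Groups of 3 libraries are too small for a test of single outlying libraries, so none was made.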

How the results depend on the processing

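Of 147 counts of members called under alternatives other than leaving out libraries, 98 stayed within 1.5 times of the count reported and 49 did not. With the replicate block the counts were 43 (DMBQ against DMSO, WT 0 h), 8 (WT 0.5 h), 2 (WT 1 h), 23 and 6 (card1 against WT, DMBQ 0 h and DMSO 6 h) and 3 (difference of the responses, 0 h); the block moved no other count by over 1.5 times. DESeq2 gave 49, 8 and 3 in WT at 0, 0.5 and 1 h, 7 and 1 in card1 at 0 and 0.5 h, 2 for card1 against WT with DMBQ at 1 h, and 10 and 2 for the difference of the responses at 0 and 0.5 h, where ATCG00300 was not among the 10. Without the filter, WT 1 h, card1 against WT in DMSO at 6 h and the difference of the responses at 0 h gave 0. Scaled by the summed plastid count, the counts were 14 and 8 (WT 0.5 and 1 h), 1 (card1 0 h), 50 and 39 (card1 against WT, DMBQ 0 and 0.5 h), 0 (DMSO 6 h), 20 and 17 (difference of the responses, 0 and 0.5 h), 57, 59 and 52 (0.5, 1 and 6 h against 0 h) and 61 (card1 against WT, mean of pairs). Fitted on the compared libraries alone, they were 39, 18, 3 and 25 in WT at 0, 0.5, 1 and 6 h, 0, 1, 1 and 1 in card1 at the same times, 4, 36, 4 and 6 for card1 against WT with DMBQ, 0, 1, 1 and 28 with DMSO, and 0 and 4 for the difference of the responses at 0 and 0.5 h; fewer libraries set the spread there. Without the WT DMSO 0 h group, 1 h against 0 h gave 16. Without both the WT and the card1 DMSO group at 0 h, card1 against WT as a mean of pairs gave 35. The cause of these shifts was not tested.

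Leaving out libraries, the counts ran between 0 and 47, 1 and 4, 0 and 3, and 0 and 1 in WT at 0, 0.5, 1 and 6 h, between 0 and 14 in card1 at 0 h and 0 and 1 at 6 h, between 0 and 21 (DMBQ 0 h), 0 and 1 (1 h) and 0 and 1 (6 h) for card1 against WT with DMBQ, between 3 and 47, 0 and 3, 0 and 4, and 0 and 3 with DMSO at 0, 0.5, 1 and 6 h, between 0 and 36 and 0 and 2 for the difference of the responses at 0 and 0.5 h, between 7 and 35, 19 and 40, and 12 and 32 for 0.5, 1 and 6 h against 0 h, and between 12 and 43 for the mean of pairs. Where a group keeps 1 or 2 libraries the spread of the other groups is assumed for it.

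The plastid share changed sign without the 3 most abundant members for DMBQ against DMSO at 6 h (-0.0448 percentage points in WT and 0.0255 in card1), for card1 against WT with DMBQ at 0, 0.5 and 1 h (-0.0177, -5.52e-05 and -0.0484) and over all pairs (-0.0198), and without the pair of WT DMSO at 0 h for 0.5 h against 0 h (-0.0189). Leaving out 1 replicate number, it ran between -0.00792 and 0.163 (DMBQ against DMSO, WT 6 h), -0.135 and 0.156 (card1 6 h) and -0.270 and 0.0114 (card1 against WT, DMSO 1 h). The log2 fold change of ATCG00220 at 6 h against 0 h was -0.0923 without the WT DMSO 0 h group. Of 502 other values for named plastid members, 443 kept their direction and call, 58 lost the call and 1 changed sign, and of 483 values with libraries left out 266 kept the call and 217 lost it. Not run were leaving out ribosomal and transfer RNA members and a length correction, since the identifiers were not paired with roles or lengths here. At this depth members near the count minimum were not tested, and the plastid share of 3 libraries against 3 cannot reach p below 0.1.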
